A study of Mus musculus with 2 samples.

Results

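The neuroendocrine oxytocin and vasopressin spots are the capture spots of 2 coronal mouse brain sections in which messenger RNA (mRNA) of the peptide hormones Oxt (oxytocin) and Avp (arginine vasopressin) was most abundant. Each spot with at least 2000 unique molecular identifiers (UMIs, tags that count each captured mRNA molecule once) was scored by the mean over Oxt and Avp of ln(1 + UMIs per 10000 UMIs of the spot). The 40 spots with the highest score in each section were taken as members, which gave 80 of 7173 spots of that depth and of 7890 deposited spots. They were 40 of the 3651 such spots under the trained label and 40 of the 3522 under the untrained label. The spots were thus chosen by their counts of Oxt and Avp, and the levels of both genes are given only as a description. The scores of the last member and of the next spot were 2.93 and 2.86 in the section labelled trained, and 1.36 in both spots of the section labelled untrained.

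Both sections came from adult male ArcCreERT2::eYFPflx mice on a C57BL/6 background, 1 mouse per condition, a line with a tamoxifen-inducible Cre recombinase under the Arc promoter and a Cre-dependent yellow fluorescent reporter. The mouse of the section labelled trained had learned active place avoidance (APA), a task in which a rotating arena carries the animal toward a zone with foot shock, and the mouse of the section labelled untrained had the same trials with the shock always off. Both had a retention test without shock a day after the last session. Brains were then frozen, and a section with the dorsal hippocampus was captured on a Visium slide, where each spot of a hexagonal grid holds several cells. With 1 section per group no test between groups or between kinds of spots was possible, because spots of 1 section are not replicates. Intervals are exact 95% intervals for counting error alone, and amplified molecules are not a sample of animals. A level in a spot cannot tell more cells of a type from more RNA per cell.

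The sections held 29515831 UMIs (labelled trained) and 59029131 UMIs (labelled untrained). Members had 2040 to 14261 UMIs with a median of 7396 in the section labelled trained, beside a median of 6612 in its remaining spots. Members of the section labelled untrained had 2053 to 27407 with a median of 15154, beside 14381. Among spots of at least 2000 UMIs, the immediate early gene Egr1 had a UMI in 38.8% in the section labelled trained and in 57.0% in the section labelled untrained. This was over all regions rather than the hippocampal spots that the study describes. This share also depends on depth, and spots of the section labelled untrained had more UMIs. Whether each label is with the right section cannot be told from these values, and every ratio between the sections has its sign only as the labels stand. The sections are therefore named by their labels, and no direction of an effect of training is drawn.

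Oxytocin and vasopressin are made by large neurosecretory neurons of the paraventricular and supraoptic nuclei of the hypothalamus and by related accessory groups, whose axons release the hormones into blood in the posterior pituitary. Each precursor carries the hormone, a neurophysin that packs it into secretory granules and, in the case of vasopressin, a glycopeptide called copeptin. Oxytocin is known for milk ejection, labour and social behaviour, and vasopressin for water retention and blood pressure.

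The genes of both hormones are neighbours on mouse chromosome 2 (GRCm38), and their middle exons, which code for most of the neurophysin, are shown because their likeness bears on how far reads can be assigned to 1 gene. Oxt lies at chr2:130576173-130577054 on the plus strand and Avp at chr2:130580620-130582554 on the minus strand, each with 3 exons, so that they converge with 3565 bases between their ends. Exon 2 of Oxt (chr2:130576591-130576792) and of Avp (chr2:130581056-130581257) are printed 5′ to 3′ on the strand of each gene, from the RefSeq GRCm38.p6 genome with GENCODE vM21 exons, with the bases that differ in capitals.
Oxt exon 2: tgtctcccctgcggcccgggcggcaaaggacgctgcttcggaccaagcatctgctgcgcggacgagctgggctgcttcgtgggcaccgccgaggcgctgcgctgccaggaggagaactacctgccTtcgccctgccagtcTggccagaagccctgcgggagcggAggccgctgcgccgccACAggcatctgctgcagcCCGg
Avp exon 2: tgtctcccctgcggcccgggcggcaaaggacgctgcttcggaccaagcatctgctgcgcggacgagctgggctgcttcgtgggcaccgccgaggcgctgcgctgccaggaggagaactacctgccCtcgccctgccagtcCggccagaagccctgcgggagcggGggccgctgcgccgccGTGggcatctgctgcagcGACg
The exons were 202 bases each and differed at 9, an identity of 95.5%, and their first 125 bases were identical. Exon 3, the nearest to the poly(A) tail by which the assay captures mRNA, shared no run longer than 8 bases between the genes, and exon 1 none longer than 14. A read wholly inside the identical run has no unique place, and the deposited counts do not show how many such reads were left out.

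The 250 bases before the annotated start of each gene were compared next, because both genes chose the spots together. They are windows of GRCm38.p6 before the RefSeq starts, which lie a short way outside the GENCODE ends given above, chr2:130575919-130576168 on the plus strand for Oxt and chr2:130582589-130582838 on the minus strand for Avp. Capitals mark TGACC or its reverse complement GGTCA, a core of the sites of nuclear hormone receptors, and CATAAA or its reverse complement TTTATG, letters chosen after both sequences had been read.
Oxt upstream: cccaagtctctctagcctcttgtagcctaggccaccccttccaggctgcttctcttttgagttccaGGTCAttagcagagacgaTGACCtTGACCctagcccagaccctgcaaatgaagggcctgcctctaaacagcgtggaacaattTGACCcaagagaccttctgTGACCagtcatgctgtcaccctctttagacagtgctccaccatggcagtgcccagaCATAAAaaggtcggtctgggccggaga
Avp upstream: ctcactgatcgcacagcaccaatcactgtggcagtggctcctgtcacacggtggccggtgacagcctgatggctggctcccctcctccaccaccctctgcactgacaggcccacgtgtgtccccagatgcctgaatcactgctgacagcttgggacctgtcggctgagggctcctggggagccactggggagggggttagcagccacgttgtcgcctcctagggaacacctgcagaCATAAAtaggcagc
Oxt had 5 matches to TGACC and Avp had 0, while each had 1 CATAAA. Of 27025 promoter windows of the same length, 34.9% held at least 1 TGACC and 10 windows (0.037%) at least 5, and 11.1% held CATAAA. A match is a description of letters and not of binding.

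Before any comparison of the sections, their barcodes were set side by side, because both slides carry the same barcodes at the same grid places. Of the 40 members of each section, 28 had the same barcode in both sections. Oxt counts of the sections at the 3448 shared barcodes had a Pearson r of 0.997, whereas the r between a spot and the other section's spot 1 step away was 0.298 to 0.428. This r rests on few rich spots, and on ln values it was 0.840, with a Spearman rho of 0.515 on counts. By the excess of the ln r over the highest r 1 step apart, Oxt ranked only 8476 among 9375 genes with at least 300 UMIs in each section. At row 61, column 61, Oxt had 1773 UMIs in the section labelled trained and 380 in the section labelled untrained. At row 68, column 54, the counts were 1563 and 336, and at row 60, column 62, they were 1485 and 278. Over the 27 barcodes with at least 100 Oxt UMIs in the section labelled trained, the count in the other section was 0.151 to 0.234 times as high, with a median of 0.192. The section labelled untrained had 27 of its 3726 Oxt UMIs at the 2708 shared barcodes where the other had none.

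**Figure D1:**
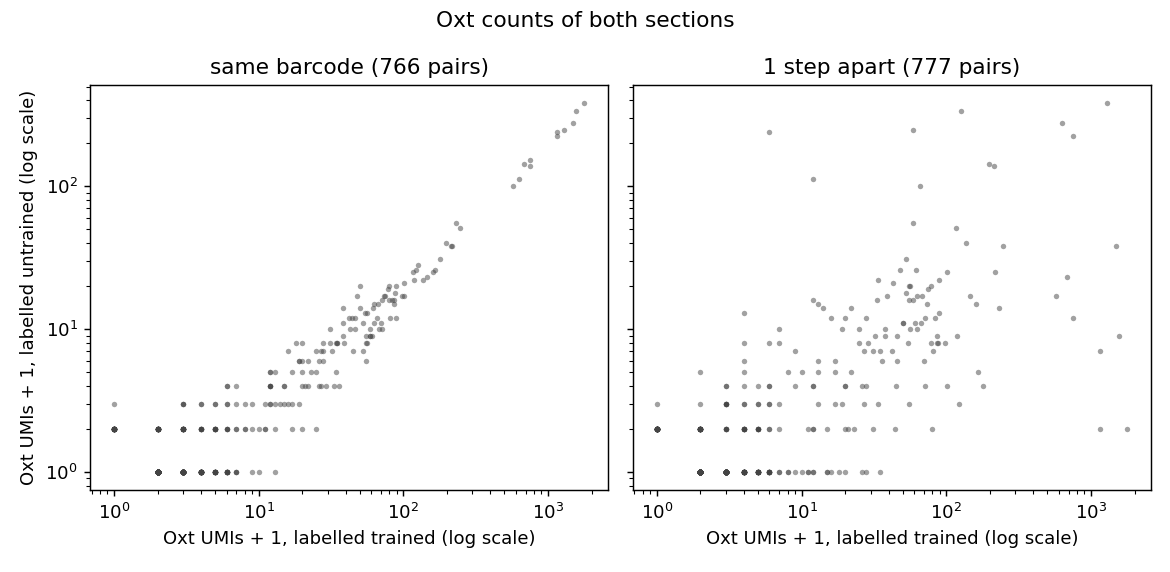
Oxt counts of the section labelled untrained (y axis, UMIs + 1, log scale) against the section labelled trained (x axis, UMIs + 1, log scale), each point a pair of spots with Oxt in either. Pairs with the same barcode, on one side, follow a line at a ratio near 0.192, and pairs 1 step apart, on the other, scatter off it.

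Avp had an r of 0.896 at the same barcode and of 0.0451 to 0.0921 at 1 step. Its count at row 60, column 64 was 124 and 39, and at row 66, column 52 it was 51 and 7, but 94 of the 314 Avp UMIs of the section labelled untrained lay at barcodes without Avp in the other. Likeness by barcode was not limited to the hormones. For all genes r was taken on ln(1 + UMIs per 10000) rather than on counts. Of 9375 genes with at least 300 UMIs in each section, 9366 (99.9%) had a higher r at the same barcode than at each of the 6 barcodes 1 step apart. The median r was 0.191 at the same barcode, beside a median of 0.0431 for the highest of the 6. The logarithm of the total UMIs had an r of 0.634 at the same barcode and of 0.470 to 0.534 at 1 step. How the counts came to be alike was not tested. The sections are thus not independent for these spots, and a result found in both sections is not a second observation of it. In each section 12 members had a barcode that was a member there alone. All 40 members of each section were deposited in the other too, so these unshared members are no more independent, and values in them are given for some results as a description.

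Oxt was concentrated in few spots. The section labelled trained held 19566 Oxt UMIs in 852 spots, and 14302 of them (73.1%) lay in the members, with 16 UMIs in the lowest member, 108 in the median member and 1773 in the highest. The section labelled untrained held 3726 Oxt UMIs in 240 spots, of which 2872 (77.1%) lay in members, with 3 in the lowest, 19 in the median and 380 in the highest. Pooled over members, Oxt reached 47775 UMIs per 1000000 (CPM) in the section labelled trained and 4889 CPM in the other, against 178 and 13.7 CPM in the remaining spots. The 10 richest members held 78.4% and 78.3% of the members' Oxt in the respective sections.

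Avp was far scarcer and less confined to the members. The section labelled trained had 721 Avp UMIs in 246 spots, 372 of them (51.6%) in members, with 0 in the lowest, 2 in the median and 124 in the highest. The section labelled untrained had 314 in 173 spots, 95 of them (30.3%) in members, with 0 in the lowest and the median and 39 in the highest. Just 4 members held 66.1% and 69.5% of the members' Avp. Both hormones were counted in 36 of 40 members of the section labelled trained (90%, interval 76.3 to 97.2%) and in 19 of 40 of the other (47.5%, interval 31.5 to 63.9%). These intervals are binomial over the 40 spots, which were chosen by a score that holds Avp, and with an unlogged score the first share was 67.5%. Every other member had Oxt alone, and 39 of 40 members in each section had more Oxt than Avp UMIs. A spot holds several cells, so a spot with both hormones does not show a cell with both.

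**Figure D2:**
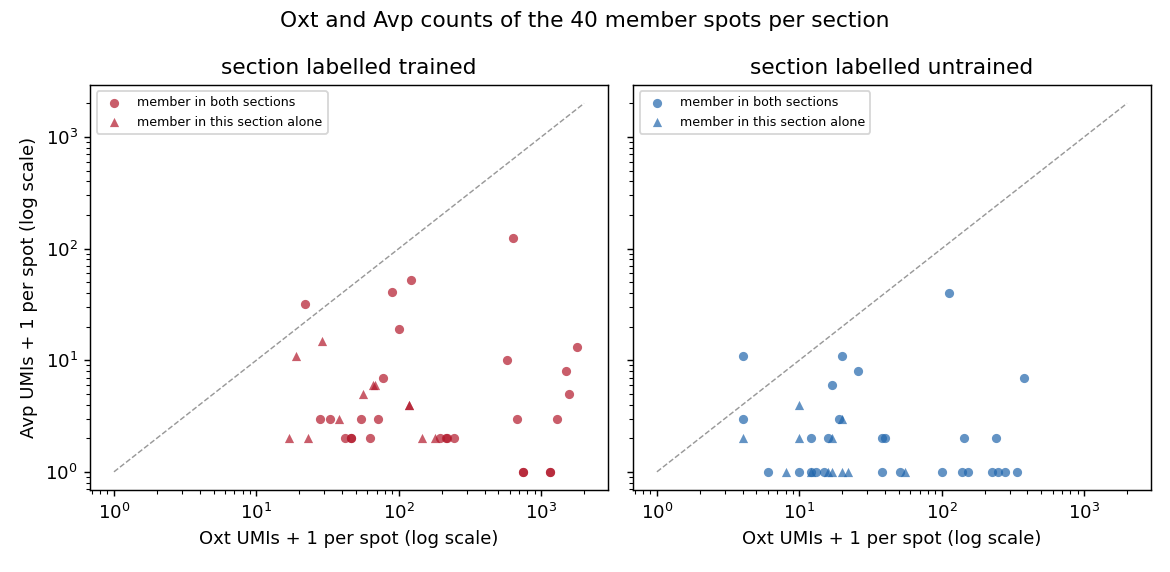
Avp counts (y axis, UMIs + 1 per spot, log scale) against Oxt counts (x axis, UMIs + 1 per spot, log scale) of the 40 members of each section, with marker shapes for members shared with the other section by barcode and not shared. All but 1 member per section lie below the dashed line of equal counts, and Avp passes 100 UMIs in 1 member, with 124.

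The members sat together at one end of the grid, a feature that the rule did not use. They occupied rows 59 to 74 and columns 45 to 80 in the section labelled trained and rows 59 to 72 and columns 47 to 73 in the other, with median rows of 68 and 67 against 38 and 40 in the remaining spots. Lamp5, a gene of superficial neocortex, had its UMI-weighted mean at rows 19.2 and 23.6, and Otp, a transcription factor needed for these hypothalamic neurons to form, at rows 64.0 and 59.9. In each section 37 of 40 members touched another member, and the members formed 8 patches, 3 of them single spots. A score of spatial clustering that the authors deposited, Moran's I, was 0.726 for Oxt in the section labelled trained, where it ranked 1 among 20513 genes, and 0.652 in the other, where it ranked 2 among 21498. For Avp it was 0.288 and 0.138.

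**Figure D3:**
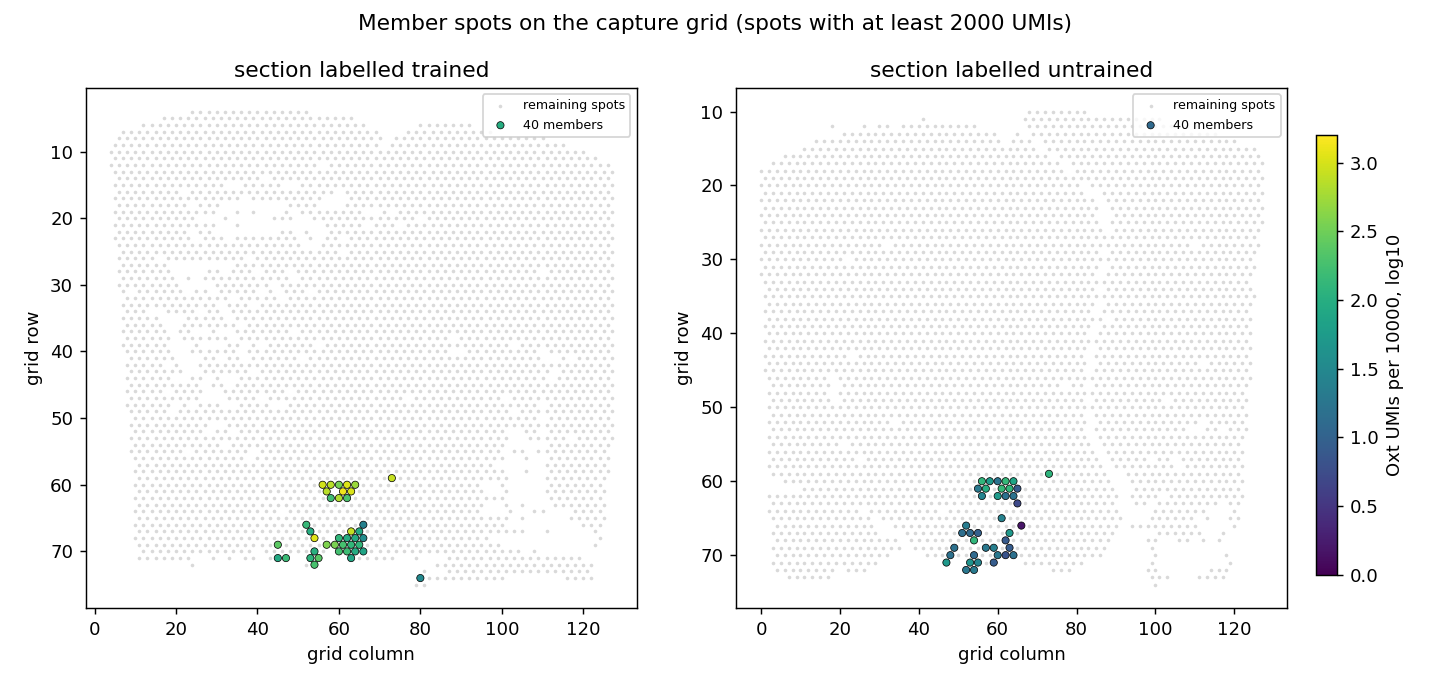
Spots with at least 2000 UMIs on the capture grid (x axis, grid column; y axis, grid row), remaining spots in grey and the 40 members of each section coloured by Oxt UMIs per 10000 on a log10 scale. Members lie at rows 59 and beyond in both sections, and the patches that start at row 60 hold 63.3% and 63.2% of the members' Oxt.

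The patches differed in what they held. A patch of 11 members at rows 60 to 62 and columns 56 to 64 of the section labelled trained held 9058 Oxt UMIs, 63.3% of the members' total at 75791 CPM, and 150 Avp UMIs. The patch with the most members, 17 at rows 66 to 71 and columns 57 to 66, held 1857 Oxt UMIs (18227 CPM) and 142 Avp UMIs. Another 3 members at rows 66 to 68 held 1761 Oxt UMIs, and the lone member at row 59, column 73 had 1146 Oxt UMIs and 0 Avp UMIs. The patch of 15 members at rows 60 to 63 of the section labelled untrained held 1816 Oxt UMIs (63.2%), and its 9 members at rows 67 to 71 held 247.

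Within the section labelled trained, Gad2, an enzyme that makes the inhibitory transmitter GABA, stood at 285 CPM (interval 191 to 409) in the patch of 17 and at 50.2 CPM (18.4 to 109) in the patch of 11. Sst (somatostatin) ran the other way, with 834 CPM (666 to 1032) and 1908 CPM (1668 to 2172), and Otp had 78.5 CPM (33.9 to 155) and 167 CPM (102 to 258). The intervals of Gad2 and Sst did not overlap, whereas those of Otp did. Slc17a6, the vesicular glutamate transporter of the hypothalamus, was near level at 196 and 226 CPM. Gad2 in the section labelled untrained had 129 CPM (73.8 to 210) at rows 67 to 71 and 52.0 CPM (28.4 to 87.3) at rows 60 to 63, and Sst 186 (118 to 279) and 606 CPM (516 to 706). The order of the patches was the same in both sections, which share these barcodes, though the Gad2 intervals of the section labelled untrained overlapped. A single member at row 60, column 58 held 85 of the 163 Sst UMIs of its patch in the section labelled untrained.

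Levels were also read by distance from the members, where the drop of Oxt at the first step follows from the rule and is given as a description. Oxt in the section labelled trained stood at 47775 CPM in members, 5005 CPM in spots 1 step away, 2671 at 2 steps, 908 at 3 steps, 232 at 4 to 5 steps and 18.7 CPM beyond 20 steps. Beyond 20 steps 14.1% of 2297 spots still had an Oxt UMI, beside 3.35% with an Avp UMI, and this far level is the background against which a spot with an Oxt UMI has to be read. Oxt in the section labelled untrained passed from 4889 to 442, 150 and 50.3 CPM over the same first steps and to 0.671 CPM beyond 20 steps, where 1.13% of 2213 spots had a UMI, beside 3.12% with Avp. Otp, a nuclear factor, had 120 CPM (84.2 to 166) in members, 60.9 CPM (40.4 to 87.9) at 1 step and 40.6 CPM at 2 steps in the section labelled trained. Its levels in the section labelled untrained were 13.6 CPM (5.88 to 26.8), 7.60 CPM (3.48 to 14.4) and 6.58 CPM, and in both sections the intervals of members and of the first step overlapped.

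Baiap3, a gene of dense-core vesicle traffic that the rule did not use, was at a like level in the members and around them. Its levels were 304 CPM in members, 296 at 1 step, 336 at 2 steps and 233 at 3 steps in the section labelled trained, and 211, 206, 230 and 148 CPM in the other. Beyond 20 steps it stood at 5.97 and 9.98 CPM. Resp18, an endocrine secretory granule protein, had 2058, 1615, 1544 and 1205 CPM over members and 3 steps in the section labelled trained and 163 CPM beyond 20 steps. Its levels in the section labelled untrained were 1568, 1489, 1241 and 1299 CPM, and 182 CPM beyond 20 steps.

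**Figure D4:**
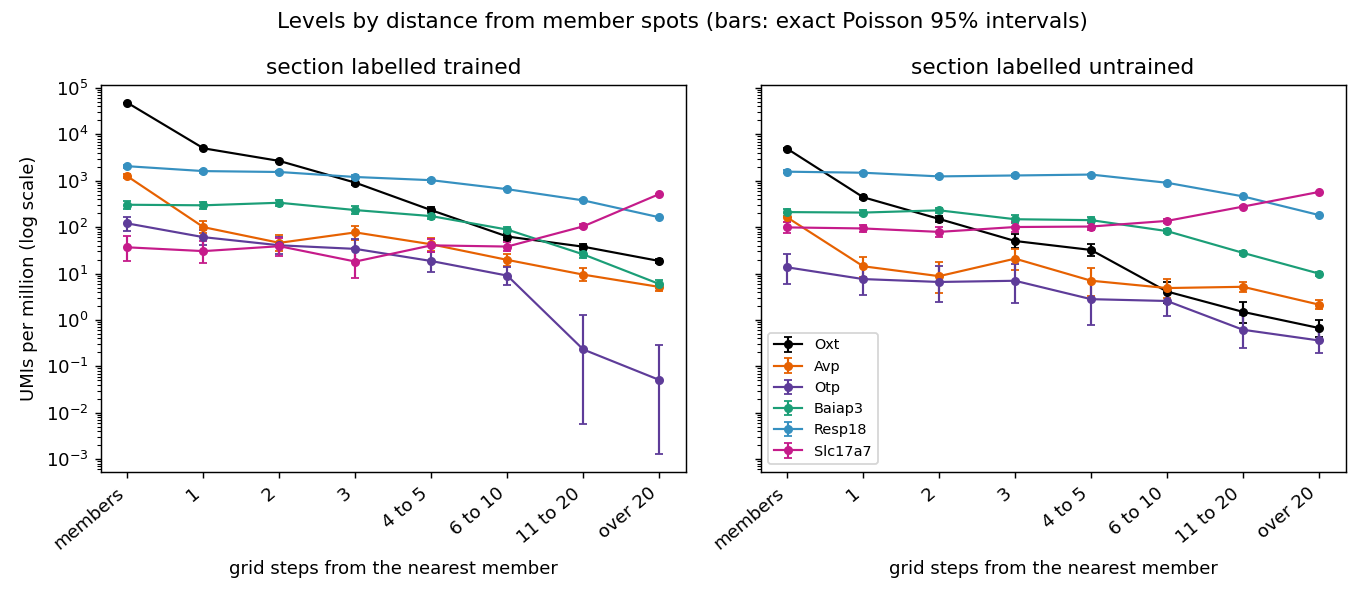
Level of each gene in CPM (y axis, log scale) by grid steps from the nearest member (x axis, members first), with exact Poisson 95% intervals for counting error as bars. Oxt drops from 47775 to 5005 CPM within 1 step in the section labelled trained, and Baiap3 stays between 296 and 336 CPM up to 2 steps.

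The other genes of the members were then compared with the remaining spots. A gene was compared where its members had at least 20 UMIs, or would have at the level of the remaining spots, in each section, and it was called where the ratio of CPM values was at least 2-fold. Of 3045 genes, Oxt and Avp left out, 72 (2.36%) were called higher and 91 (2.99%) lower in both sections. Read singly, the section labelled trained had 144 (4.73%) higher and 213 (7%) lower, and the section labelled untrained 80 (2.63%) and 108 (3.55%). In the 12 unshared members per section, 51 of the 72 higher genes were at least 2-fold higher in both sections and 71 lay above 0, and 62 of the 91 lower genes were at least 2-fold lower and 91 lay below 0. The remaining spots come from every other place of the sections, and 18.1% and 18.5% of them lie at row 59 or beyond, so the ratio sets the place of the members against other places.

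Several of the highest genes, among them Arhgap36, Baiap3, Dlk1, Ngb, AW551984, Celf6, Adcyap1 and Trh, reached the minimum of 20 UMIs in both sections only through their counts in members, so they could be compared only because they were high there, and their ratios are a description. Arhgap36 is a regulator of protein kinase A signalling and had 31 UMIs in members of the section labelled trained (log2 ratio 3.67, interval 3.06 to 4.19) and 28 in the other (3.34, interval 2.70 to 3.88), where 7.09 would be there at the Oxt ratio of the shared barcodes and where the unshared members had 2. Baiap3 had 91 UMIs in 34 members (3.09, interval 2.76 to 3.39) and 124 UMIs in 35 members (2.79, interval 2.51 to 3.05), of which 14.6 would be there at the Oxt ratio. Its ratios in the unshared members were 3.48 and 2.24. Those of Gpx3 were 3.06 and 1.76, and those of Dlk1 2.71 and 1.18, from 4 and 3 UMIs. Other genes of this rank were the antioxidant enzyme gene Gpx3 (3.27 and 2.75), the imprinted ligand gene Dlk1 (3.0 and 2.65), the neuroglobin gene Ngb (3.05 and 2.30) and AW551984 (3.01 and 2.16). Minar2 (2.57 and 2.10), the RNA-binding factor gene Celf6 (2.43 and 2.08) and Itih3 (1.99 and 2.09) followed. Gpx3, Minar2 and Itih3 reached the minimum in the section labelled trained only through their counts in members. They too could thus be compared only because they were high there, and their ratios are a description.

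The 8 genes with the lowest ratios are given by the same rule, with no theme tested over them. Itpka, a kinase of dendritic spines, had 0 UMIs in members of the section labelled trained, at least 14.1-fold lower than the 141 CPM of the remaining spots by a floor of 3 UMIs over the members, and 13 UMIs in the other (log2 ratio -2.48, interval -3.45 to -1.76). Nrgn, a postsynaptic calmodulin-binding protein, had ratios of -3.55 and -2.34, and the adenylyl cyclase gene Adcy1 of -3.30 and -2.28. Slc17a7, the glutamate transporter of cortex and hippocampus, had ratios of -3.28 and -2.18, and Rprml, Lamp5 and the peptide gene Npy lay between -3.13 and -2.10 in both sections. Ttr, a product of choroid plexus, had ratios of -2.08 and -2.37.

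Of the 16 listed transcription factors of neuroendocrine development, 2 had enough UMIs to be compared. Otp had too few UMIs for this in the section labelled untrained. It had 36 UMIs in 19 members of the section labelled trained, with 0 to 5 UMIs per member, against 2.44% of remaining spots with a UMI (5.03, interval 4.43 to 5.57). In the section labelled untrained it had 8 UMIs in 7 members against 1.23% of remaining spots (3.93, interval 2.57 to 4.93), and 6.13 of the 8 would be there at the Oxt ratio. Sim1, which acts with Otp in the same lineage, had 6 and 3 UMIs. Peg3, an imprinted zinc finger gene of maternal behaviour, was called higher in both sections (1.61 and 1.36, all genes 2.36%), while Arnt2, the partner of Sim1, was near level at -0.12 and 0.18.

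Peptides known to be made beside the hormones, or by neighbouring neurons, were higher in part. Of 15 listed co-peptides and regulators, 4 were compared, 1 was higher and 1 lower in both sections, beside 2.36% and 2.99% of all genes. The higher gene was Adcyap1, which codes for the neuropeptide PACAP, with 35 and 60 UMIs (2.86 and 2.44), which entered through its counts in members, and the lower was Cck (-1.51 and -1.31), a peptide abundant in cortex. Gal (galanin) had 49 UMIs in 25 members of the section labelled trained (3.85, interval 3.37 to 4.27) and 17 UMIs in 13 members of the other (2.21, interval 1.37 to 2.87), too few there to be compared. Cartpt had a ratio of 2.49 in the section labelled trained and of 0.05 in the other. Pdyn (prodynorphin), a known partner of vasopressin, had 18 and 11 UMIs (0.68, interval -0.12 to 1.30, and -0.31, interval -1.38 to 0.47).

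Of 20 other hypothalamic peptides, 4 were compared, 1 was higher (Trh) and 1 lower (Npy) in both sections, beside 2.36% and 2.99% of all genes. Their medians were 0.82 and 1.16, and the second lay between -0.86 and -0.49 with 20 members, outside the largest patch or at a minimum of 50 UMIs. Trh, the thyrotropin-releasing hormone made by small neurons of the paraventricular nucleus, was higher in both sections and entered through its counts in members. It had 0 to 10 UMIs per member and 86 in all in the section labelled trained (3.86, interval 3.51 to 4.18) and 27 in the other (2.10, interval 1.47 to 2.63), 16.7 of which would be there at the Oxt ratio. The unshared members alone had 27 and 14 Trh UMIs (4.23 and 3.31). Sst had 335 UMIs (1.90) and 207 UMIs (0.47), but a single member at row 60, column 58 held 59 and 85 of them, and without it the ratios were 1.67 and -0.22. Crh, the stress hormone of the same nucleus, had 5 and 3 UMIs, and Hcrt, the orexin precursor of the lateral hypothalamus, had 0 in both.

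Receptors for these peptides were at the limit of detection. None of 17 listed receptors reached the minimum for comparison, and Oxtr, the oxytocin receptor, had 0 UMIs in members of both sections, which allows up to 10.02 CPM in the section labelled trained and 5.11 CPM in the other by a floor of 3 UMIs. Its level in the remaining spots was 2.43 and 3.26 CPM, below these floors. Vasopressin receptor genes Avpr1b and Avpr2 also had 0, and Avpr1a had 1 and 2 UMIs.

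Of 9 genes of the granin list, proteins of the secretory granule, 8 were compared and 2 were higher in both sections (all genes 2.36%), with medians of 0.43 and 0.37 beside 0.04 and 0.05 over all 3045 genes. Resp18 had 4 to 36 UMIs per member and 616 in all in the section labelled trained (2.64, interval 2.51 to 2.75), and 2 to 68 per member and 921 in all in the other (2.08, interval 1.98 to 2.18). The unshared members gave 2.70 and 1.69. Scg2 (secretogranin II) had 169 and 348 UMIs (1.77 and 1.63). Pcsk1n (0.58 and 0.59), Scg5 (0.40 and 0.39) and Chga (0.35 and 0.35) lay above 0 and under 2-fold, and Chgb lay below (-0.29 and -0.33).

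Of 13 prohormone processing genes, 5 were compared and 1 was higher in both sections (all genes 2.36%). This was Pcsk1, a convertase that cuts hormone precursors, with 21 UMIs in each section (2.41, interval 1.67 to 3.01, and 1.89, interval 1.15 to 2.48). It reached the minimum of 20 UMIs through its counts in members, so it could be compared only because it was high there. Its partner Pcsk2 had ratios of -0.66 and -0.46, the trimming enzyme gene Cpe of -0.12 and 0.10, and the amidating enzyme gene Pam, which finishes both hormones, of 0.83 and 0.64. Among 14 genes of the secretory pathway and the unfolded protein response that were compared, none was called in either section, with medians of 0.70 and 0.31. The highest were Ssr4 (0.93) and Sec61b (0.92), parts of the gate into the endoplasmic reticulum, in the section labelled trained.

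A list of 22 genes enriched in medial hypothalamus had 13 genes that were compared, and 13 were higher in both sections, beside 72 of all 3045 genes (2.36%). Their medians were 1.97 and 1.69. Beside Baiap3 and Dlk1 these were Hap1 (2.76 and 1.70), a partner of huntingtin, the imprinted gene Nnat (2.28 and 1.2), Zcchc12 (2.07 and 1.76), Ahi1 (1.98 and 1.48) and 7 more. A gene scarce elsewhere could enter only through its members' UMIs, so the count was in part set by the minimum and describes the list. The 9 genes under the minimum included Irs4 (26 and 19 UMIs, 3.35 and 3.03) and Gpr101 (30 and 14 UMIs, 3.93 and 1.93), while Pgr, the progesterone receptor, had 0 in both sections. This list was chosen with earlier results of these data known.

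Transmitter genes split by transporter. Of 8 listed genes 5 were compared. Slc17a6 was higher in both sections with 61 and 113 UMIs (1.10, interval 0.70 to 1.46, and 1.14, interval 0.85 to 1.40), and Slc17a7 was lower, beside 2.36% and 2.99% of all genes. Slc17a6 was not particular to the members, with 204 CPM in members and 226 CPM at 11 to 20 steps in the section labelled trained, and 192 CPM in members and 193 CPM at 1 step in the other. The GABA genes Gad2 (0.01 and -0.10), Slc32a1 (-0.32 and 0.18) and Gad1 (-0.98 and -1.19) were not higher than in the remaining spots beyond their intervals.

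**Figure D5:**
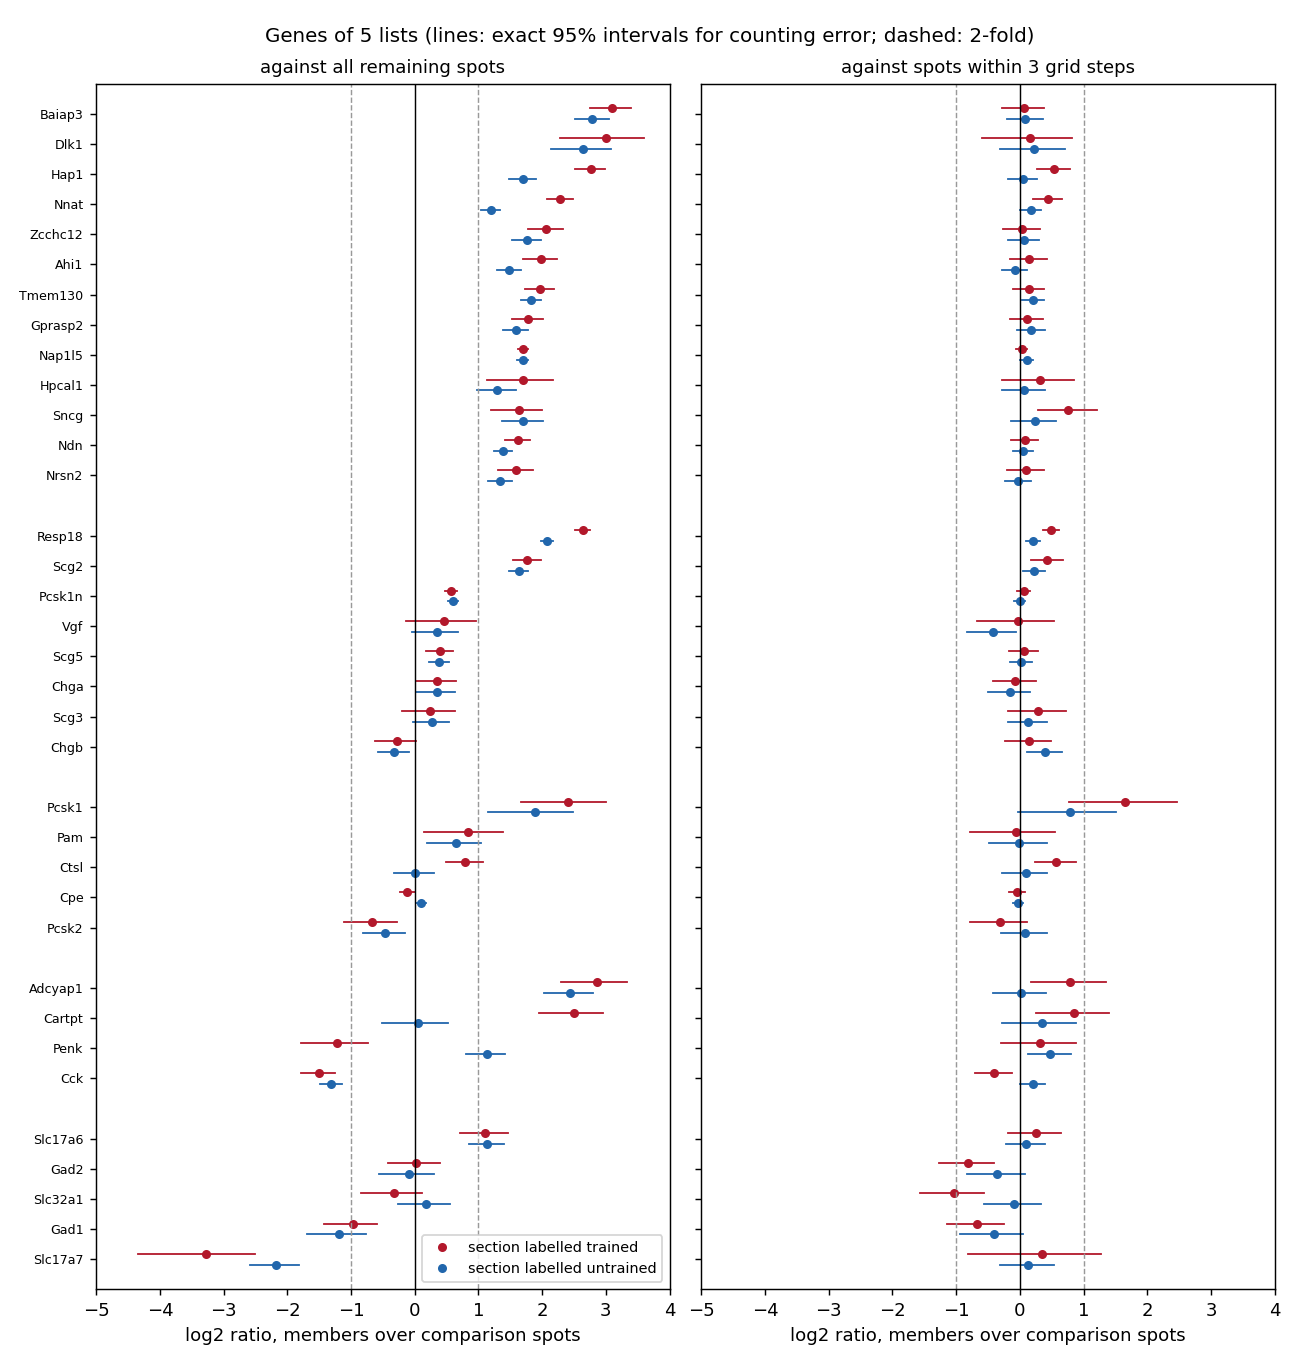
Log2 ratio of members over all remaining spots (left) and over spots within 3 grid steps (right) for the compared genes of 5 lists, red for the section labelled trained and blue for untrained, with exact 95% intervals as lines and 2-fold as dashed lines. Medial hypothalamic genes lie past 2-fold on the left and near 0 on the right, and Pcsk1 lies past 2-fold in both sections on the left.

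Markers of other cells moved with the members in part. All 11 genes of oligodendrocytes and white matter were at least 2-fold lower in members of the section labelled trained, beside 213 of all 3045 genes, with a median of -2.15. In the other section 0 of 11 were, beside 108 of all 3045 genes, with a median of -0.42. Their summed level was 1670 CPM in members against 7831 CPM in remaining spots, and 4862 against 7137 CPM, with 3.52 to 61.3 UMIs per 10000 per member and 19.8 to 218 in the other, and none of the 11 was at 0. The 9 ependymal markers, cells that line the ventricles, summed to 461 CPM against 87.4 in the section labelled trained and to 223 against 202 in the other, led by Rarres2 (2.72 and 0.55). No ependymal marker was at 0 in members. Whether these cells have a part in the ratios above was not tested.

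Of 10 compared astrocyte genes, with medians of 0.16 and 0.34, Agt (angiotensinogen) was higher in both sections (1.42 and 1.45) and the GABA transporter gene Slc6a11 was at 0.81 and 1.34. Pituitary markers came to 10 UMIs in each section, and 9 of 10, growth hormone and prolactin among them, were at 0, the rest being Pomc, which hypothalamic neurons also make. Of 20 immediate early genes, which respond to neuronal activity, 3 were compared, and Egr1 (-1.38 and -1.37) and Arc (-3.18 and -1.68, from 2 and 12 UMIs) were lower in both sections, beside 2.99% of all genes. Fos had 16 and 26 UMIs (0.80, interval -0.05 to 1.47, and 0.76, interval 0.11 to 1.29). Of the lists of other cells and regions, both compared choroid plexus genes were lower in both sections, among them Ttr. Neocortex had 2 of 3 lower, amygdala 3 of 4 lower with Dlk1 higher, striatum 1 of 3 lower, and thalamus and habenula 1 higher (Calb2, 1.89 and 1.60) and 1 lower (Prkcd, -1.50 and -2.24) of 3, beside 2.36% higher and 2.99% lower over all genes. The striatal list ran both ways, as Ppp1r1b was lower (-4.14 and -1.36) while Penk was at -1.21 and 1.13 and Tac1 at -0.26 and 1.84. None of the compared genes of microglia, endothelium, meninges, blood and hippocampal cells was called in both sections, and no gene of tanycytes reached the minimum. Mitochondrially encoded genes made up 71782 CPM of members and 122760 CPM of remaining spots in the section labelled trained, beside 150810 and 161720 CPM in the other.

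Against their own surroundings the members had far fewer differences. Of 2909 genes compared with the remaining spots within 3 grid steps (184 and 167 spots), 0 (0%) were called higher and 0 (0%) lower in both sections. In the section labelled trained 22 (0.756%) were higher, among them Pcsk1 (1.65), Sst (1.5) and Rarres2 (1.37), and 15 (0.516%) lower, among them Mal (-1.30), a gene of myelin, and Slc32a1 (-1.03). The same genes were at 0.79, 0.78, 0.42, -0.04 and -0.09 in the section labelled untrained. Pcsk1 entered here too only through its counts in members. Of the genes that were highest against the whole section, some were near level with the surroundings and others were higher by less than 2-fold. Baiap3 was at 0.06 and 0.09 and Ngb at -0.06 and -0.03. Nap1l5, not among the highest with ratios of 1.70 and 1.69 against the whole section, was at 0.03 and 0.11. Slc17a7, among the lowest against the whole section, was at 0.34 and 0.13. Trh stood at 0.74 and 0.73, Celf6 at 0.71 and 0.50, Gpx3 at 0.51 and 0.39, and Resp18 at 0.49 and 0.21. Otp, outside the comparison for its low counts, was at 1.43 and 0.99, and Gal at 1.46 and 0.09.

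The members of the sections were then set against each other, with the same ratio in the remaining spots beside it. Of 3697 genes, 145 (3.92%) were at least 2-fold higher in members of the section labelled trained and 128 (3.46%) at least 2-fold lower. Mitochondrially encoded RNA was 71782 CPM of the former members and 150810 CPM of the latter, and with these genes left out of the total the counts were 90 higher and 177 lower. With Oxt and Avp left out of the total instead, the counts moved the other way, to 175 higher and 103 lower. Oxt had a log2 ratio of 3.29 (interval 3.23 to 3.35) and of 3.69 in the remaining spots, and Avp of 2.94 (interval 2.61 to 3.28) and of 1.69. Among other genes Otp had the highest ratio (3.07, interval 2.01 to 4.46, remaining spots 1.97), with Nme7 (3.07, remaining 3.37), Ulk4 (2.75, remaining 2.86), Trh (2.63, remaining 0.87) and Gal (2.47, remaining 0.84). At the other end, AA465934 had 0 UMIs against 57, at least 9.68-fold lower by the floor (remaining -3.92), Lrrc17 a ratio of -4.37 (remaining -3.39), the small neuronal RNA Bc1 of -4.19 (remaining -3.42), Snhg9 of -3.75 (remaining -3.18) and mt-Atp8 of -2.94 (remaining -1.95). Apart from Trh and Gal, each of these other genes also differed by over 2-fold between the remaining spots of the sections. Nme7 overlaps Blzf1 and Atp1b1 on the other strand, Ulk4 overlaps Ctnnb1 there, Lrrc17 overlaps Fbxl13 and Snhg9 overlaps Rps2. On their own strand mt-Atp8 overlaps mt-Atp6, AA465934 Snord7 and Snhg9 Snora78, so the counts of these genes are uncertain.

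Of the 273 genes called between members, 37 (13.6%) were at least 2-fold apart the same way in the remaining spots. Ratios over the 3697 genes had an SD of 0.58 in members and of 0.38 in remaining spots, where the counts are larger. Section, mouse and label cannot be told apart, and the summed myelin and ependymal markers given above differed between the members of the sections, whose part in these ratios was not tested.

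Over all spots of at least 2000 UMIs, the 3045 genes compared were ranked by how like the score their per-spot level was, by the lower r of the sections. The first were Baiap3 (Pearson r 0.494 over 3651 spots of the section labelled trained and 0.397 over 3522 spots of the other), Gpx3 (0.473 and 0.374), Resp18 (0.458 and 0.329), Nap1l5 (0.370 and 0.310) and Minar2 (0.385 and 0.306). Baiap3 had entered only through its counts in members in both sections, and Gpx3 and Minar2 in the section labelled trained. Genes under the minimum were not ranked, and the members are among these spots. Spots share their library and their depth, so these values are a description.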

How the data were processed

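The deposited files hold UMI counts per gene and spot of 2 Visium sections, 1 per label, with spot positions on the capture grid. The authors trimmed reads with TrimGalore and aligned and counted them with Space Ranger 2.0.0 against an mm10 reference, and deposited raw counts and, per gene, a Moran's I score. Their p-values, log-normalized and signal columns were not used. Depth was 29515831 and 59029131 UMIs.

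Counts of members and of other spots of at least 2000 UMIs were summed per section and divided by total UMIs (CPM). Ratios are log2 with 0.5 UMI added to each sum, with exact conditional binomial 95% intervals, and no test was made, as each group has 1 section. Genes entered at 20 UMIs observed or expected in members per section, or 40 UMIs over both sections between labels, and calls are 2-fold. Named genes were Oxt and Avp, genes of 6 neuroendocrine lists, up to 3 from each end of the other lists, the 12 highest and 8 lowest in both sections, 5 per direction between labels and the 5 most like the score. Of 325 listed symbols in 26 lists, 3 were not found (Ddit3, Nov, Ctgf), and 1 is not reported here by name. Members, lists and comparisons were chosen with earlier results of these data known. The summing was tested on simulated data. Results were recomputed under 16 other settings, and under 2 chosen after seeing the data. Sums and intervals used numpy 2.4.6 and scipy 1.17.1, tables pandas 2.3.3 under Python 3.11.15, and plots matplotlib 3.10.9. Gene positions are GENCODE vM21 and RefSeq GRCm38.p6.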

Additional observations from a re-analysis of the deposited data

Results flagged for a closer look

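Oxt was also counted in spots too shallow for the rule. In the section labelled trained, 153 Oxt UMIs lay in the 501 spots under 2000 UMIs, in 32 of them with at most 21 per spot, at 328 CPM. In the section labelled untrained it was 53 UMIs in 216 such spots, in 24 of them with at most 8, at 360 CPM. At the minimum of 2000 UMIs these spots entered no comparison of members with other spots or between labels. The comparison by shared barcode took spots of any depth, and an alternative setting took spots of at least 1000 UMIs.

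A pair of genes were at least 2-fold apart in opposite directions in the sections, and the difference between sections was not tested. Penk (proenkephalin) had a log2 ratio of members over remaining spots of -1.21 in the section labelled trained and of 1.13 in the other, from 32 UMIs in 17 members and 93 UMIs in 28 members, and without its richest member the ratios were -1.47 and 0.95. Its level was 107 and 158 CPM in members and 252 and 72.7 CPM in the remaining spots, so the remaining spots differed more between the sections than the members did. Mgp, a matrix protein gene of vessels and meninges, had ratios of 1.61 and -1.43. Of its 44 UMIs in members of the section labelled trained, 36 lay in the member at row 74, column 80, which also held 22 of the 25 UMIs of the smooth muscle gene Acta2, and without that member the Mgp ratio was -0.75.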

How the results depend on the processing

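No paired analysis was possible because each label has 1 section. The 72 higher and 91 lower genes of both sections, and the 145 higher and 128 lower between labels, depended on how many spots and UMIs entered. With 20 members per section they were 46 and 42, with 83 higher between labels, and with 80 members 110 and 160, with 278 higher. The largest patch then had 9 and 6 members with 20 per section, and 76 and 75 with 80, when 76.2% of members of the section labelled trained had both hormones, beside 67.5% under an unlogged score. Without the largest patch 43 genes were higher, and 75 between labels. With each spot thinned to 2000 UMIs the counts were 27 and 24, and 22 and 29 between labels, from 603 and 616 genes compared. Without mitochondrially encoded genes in the total 90 were higher and 177 lower between labels, and without Oxt and Avp in the total 175 were higher and 103 lower. A minimum of 10 UMIs gave 127 and 155, and 364 and 305 between labels, and a minimum of 50 gave 39 and 26, and 41 and 53. Within 3 grid steps both counts were 0. In members unshared by barcode, an alternative chosen after seeing the data, they were 19 and 14, and 45 and 39, from 663 and 785 genes.

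A change of sign was counted only for ratios of at least 2-fold in the main setting. Smaller ratios also changed sign, such as that of Nme7 in the section labelled trained, from -0.03 to 0.20 within 3 grid steps. Of 1146 ratios of named genes under the alternatives, 11 were at least 2-fold in the main setting and changed sign. Within 3 grid steps these were Ngb (-0.055 and -0.029) and Slc17a7 (0.34 and 0.13), and in the section labelled untrained AW551984 (-0.31), Itpka (0.071), Lamp5 (0.10), Npy (0.24) and Ttr (0.084). AA465934, with few UMIs, went to 0.00689 in the section labelled trained with an unlogged score and to 0.50 in unshared members. The median of other hypothalamic peptides in the section labelled untrained went to -0.49 with 20 members, to -0.86 outside the largest patch and to -0.81 at a minimum of 50. The cause of these changes was not tested, apart from the number of genes compared. Counts of UMIs limit single genes, since Otp had 8 and Sim1 3 UMIs in members of the section labelled untrained.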
